A study of Mus musculus with 2 samples.

Results

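The long noncoding genes *Gas5*, *Snhg1*, *Snhg3*, *Snhg5*, *Snhg6*, *Snhg8* and *Snhg12* carry small nucleolar RNAs (snoRNAs) in their introns. They were read by symbol from an RNA-Seq table of 37451 genes in LPS-stimulated bone marrow-derived macrophages (BMDMs). Of these 7 genes, 5 matched a row (*Gas5*, *Snhg1*, *Snhg3*, *Snhg5* and *Snhg12*), and *Snhg6* and *Snhg8* matched none, also by their RefSeq synonyms, and are not analysed here. The loci of the 5 matched genes enclose 25 of the 1549 rows annotated as snoRNA, all on the strand of their host. In short, 4 of the 5 host genes were higher in TTP-deficient than in WT BMDMs by 1.18-fold to 1.85-fold, *Snhg5* was lower, and 22 of the 25 enclosed snoRNA rows were higher. In the same libraries 50.7% of genes over 300 nt and 85.1% of 281 other snoRNA rows were higher, so the snoRNA count is near that of other snoRNAs. These directions are those of the FPKMs as deposited: with both libraries scaled to the same FPKM sum, which was 1.36-fold higher in ΔM, 3 of the 5 host genes and 11 of the 25 snoRNA rows were higher, and *Gas5* was lower in ΔM at a log2 ratio of -0.21. This scaling lowers every log2 ratio of the FPKMs by 0.44. As deposited, genes over 300 nt had a median of 0.01 and an upper quartile of 0.19 after adding 1 FPKM, so most of them turn lower too. Of the 281 other snoRNA rows, 48.0% were higher after it. That near-even split follows from a shift of 0.44 close to their median of 0.43. SnoRNA rows, whose FPKMs are inflated by their short length, made up 821698 of the summed 1844670 FPKM in WT. In ΔM they made up 1120590 of 2508590 FPKM. Centring the host ratios on the median of all genes or of genes over 300 nt instead shifted them by at most 0.03 and changed no direction.

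The table holds 1 library of WT BMDMs (C57BL/6) and 1 library of ΔM BMDMs (C57BL/6 TTP fl/fl LysMCre), grown with CSF-1 from bone marrow of littermates aged 7 to 9 weeks. In ΔM cells a floxed TTP gene, *Zfp36*, is removed by Cre, which the lysozyme M locus drives, so that deletion is limited to cells that use this locus. TTP is an RNA-binding protein that promotes decay of mRNAs with AU-rich elements. Both groups received 100 μM 4-thiouridine for 16 h and 10 ng/ml LPS for 6 h, so neither shows the unstimulated or unlabeled state. Values are FPKMs, that is, fragments scaled to transcript length and library size, and with 1 library per genotype differences could not be set against replicates and carry no p-values. It is not stated whether each library came from 1 animal or from pooled animals.

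SnoRNAs guide the chemical modification of ribosomal RNA. Box C/D snoRNAs direct 2′-O-methylation and bind fibrillarin, Nop56, Nop58 and Nhp2l1, and box H/ACA snoRNAs direct pseudouridylation and bind dyskerin, Gar1, Nhp2 and Nop10. Most vertebrate snoRNAs are not transcribed alone. They are cut out of introns after splicing of a host transcript, when the intron lariat has been debranched and exonucleases have trimmed it up to the assembled snoRNP. The host of a snoRNA can be a ribosomal protein gene or a gene whose spliced RNA encodes no protein. In the second case the exons are joined into an RNA that is exported, engaged by ribosomes and degraded by nonsense-mediated decay, while the introns leave stable snoRNAs. The exons and the introns of such a host therefore end up in RNAs of different lifetimes. *Gas5* was named for its accumulation in growth-arrested cells, *Snhg1* is the U22 host gene, *Snhg3* the U17 host gene and *Snhg5* the U50 host gene.

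The snoRNAs below are those that the comparisons of the libraries turn on: in each locus the row with the highest FPKM in WT and the rows with the highest and the lowest ratio, and the 2 pairs of near-identical copies. They are given in the sense orientation from NCBIM37 (mm9), as DNA letters. Capitals mark box C (TGATGA) in the first 20 bases and box D (CTGA) in the last 20 bases of a C/D snoRNA, or the ACA that stands 3 bases before the end of an H/ACA snoRNA.
SNORD77 of *Gas5*, chr1:162967732-162967812, plus strand: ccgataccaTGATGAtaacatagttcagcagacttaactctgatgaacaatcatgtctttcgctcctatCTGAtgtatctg
SNORD44 of *Gas5*, chr1:162966813-162966872, plus strand: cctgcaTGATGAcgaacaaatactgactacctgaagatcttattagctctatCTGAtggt
SNORD78 of *Gas5*, chr1:162967115-162967180, plus strand: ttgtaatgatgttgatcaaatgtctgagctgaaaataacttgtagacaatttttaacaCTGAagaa
SNORD29 of *Snhg1*, chr19:8799582-8799646, plus strand: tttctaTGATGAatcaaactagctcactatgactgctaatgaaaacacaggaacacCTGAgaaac
SNORD25 of *Snhg1*, chr19:8798483-8798554, plus strand: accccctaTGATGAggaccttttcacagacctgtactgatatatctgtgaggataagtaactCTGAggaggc
SNORD30 of *Snhg1*, chr19:8799831-8799899, plus strand: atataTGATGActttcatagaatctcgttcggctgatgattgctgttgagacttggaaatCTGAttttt
Snora73a of *Snhg3*, chr4:131908690-131908894, minus strand: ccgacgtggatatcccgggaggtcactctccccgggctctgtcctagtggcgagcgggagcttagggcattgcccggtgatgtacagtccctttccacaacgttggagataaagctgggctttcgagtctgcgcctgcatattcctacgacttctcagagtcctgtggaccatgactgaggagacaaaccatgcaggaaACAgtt
Snora73b of *Snhg3*, chr4:131908237-131908441, minus strand: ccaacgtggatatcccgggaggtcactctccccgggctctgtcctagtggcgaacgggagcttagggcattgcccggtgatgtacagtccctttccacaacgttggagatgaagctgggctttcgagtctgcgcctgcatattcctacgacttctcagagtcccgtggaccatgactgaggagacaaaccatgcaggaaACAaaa
SNORD50 of *Snhg5*, chr9:88416367-88416438, minus strand: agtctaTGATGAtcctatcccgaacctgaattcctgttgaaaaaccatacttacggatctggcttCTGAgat
SNORD50 of *Snhg5*, chr9:88416635-88416706, minus strand: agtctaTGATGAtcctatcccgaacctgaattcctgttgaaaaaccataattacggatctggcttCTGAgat
Snora61 of *Snhg12*, chr4:131866155-131866284, plus strand: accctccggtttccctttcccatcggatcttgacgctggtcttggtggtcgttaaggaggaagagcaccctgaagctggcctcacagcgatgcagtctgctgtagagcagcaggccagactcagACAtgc
Snord99 of *Snhg12*, chr4:131866606-131866679, plus strand: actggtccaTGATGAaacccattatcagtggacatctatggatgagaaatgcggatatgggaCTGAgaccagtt

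Of the 25 rows, 20 are box C/D and 5 are box H/ACA snoRNAs by name, from 60 to 205 nt long. Box D was found in all 20 C/D rows and the exact box C letters in 15 of them, searched on the sense strand only. Among the 504 other snoRNA rows of at most 110 nt, which are not sorted by box, 74.4% held box D and 52.4% box C in these windows. The ACA was found in 4 of the 5 H/ACA rows, and in 24.5% of the 993 other snoRNA rows of more than 110 and at most 205 nt. SNORD78, shown above with no capitals at its 5′ end, lacks the exact box C letters.

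The paired copies differ by few bases. The *Snhg5* locus holds 2 rows named SNORD50, 72 nt each, that are identical in 71 positions. With positions counted from 1 at the 5′ end, the single difference is C50A, with the base of the copy at chr9:88416367-88416438 first and that of the copy at chr9:88416635-88416706 last. Snora73a and Snora73b of *Snhg3* share 198 of 205 positions, and the 7 differences from Snora73a to Snora73b are G3A, G54A, A111G, T164C, G203A, T204A and T205A. Because the authors kept uniquely mapped reads only, a fragment of either pair was counted only where it covered a differing base or reached into the flanking sequence, and values of single copies are uncertain.

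The starts of the host genes are shown because host genes of snoRNAs are known for transcripts that begin with a run of pyrimidines (5′ terminal oligopyrimidine transcripts), the class to which ribosomal protein mRNAs belong. Each line gives 20 bases before and 20 bases from the RefSeq start (GRCm38.p6), with the longest pyrimidine run that begins with C within 5 bases of that start in capitals.
*Gas5*, chr1:161035146-161035185, plus strand: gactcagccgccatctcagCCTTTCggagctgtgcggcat
*Snhg1*, chr19:8723467-8723506, plus strand: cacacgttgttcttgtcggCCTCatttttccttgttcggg
*Snhg3*, chr4:132353667-132353706, minus strand: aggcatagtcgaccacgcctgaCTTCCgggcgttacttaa
*Snhg5*, chr9:88522878-88522917, minus strand: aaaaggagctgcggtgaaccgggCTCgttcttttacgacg
*Snhg12*, chr4:132308658-132308697, plus strand: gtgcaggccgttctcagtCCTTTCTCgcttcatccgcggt
The run was 8 nt long in *Snhg12*, 6 nt at the downstream start of *Gas5*, 5 nt in *Snhg3*, 4 nt in *Snhg1* and 3 nt in *Snhg5*. The upstream RefSeq start of *Gas5*, not shown, had a run of 3 nt. Of 27018 genes with a RefSeq promoter, 21.2% had a run of at least 5 nt and 5.17% one of at least 8 nt at any of their starts. The start of *Snhg8*, which has no value here, had a run of 6 nt. These runs are a description of the letters around an annotated start, not of where transcription began in these cells.

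FPKMs do not carry the read depth, but rows with few fragments can take only certain values, and the spacing of these values gave the depth. It came to 37200000 fragments in WT and 32900000 in ΔM, with 96.7% of 1387 and 96.9% of 1372 low values within 0.05 of a whole number. The targeted gene *Zfp36* was at 65.3 FPKM in WT and 16.7 in ΔM. The 8 macrophage markers ranged from 5.45 to 2481 FPKM (WT) and from 11.6 to 1356 FPKM (ΔM), and their sum was 4004 and 2872 FPKM. The lowest of them was *Mrc1*, at 5.45 FPKM in WT and 11.6 in ΔM. The highest was *Lyz2*, the locus that drives Cre, at 2481 FPKM in WT and 1356 in ΔM. Most of the fall in the sum lay in *Lyz2*. *Emr1* was at 380 FPKM in WT and 357 in ΔM, *Cd68* at 388 and 390 and *Fcgr1* at 306 and 329. *Itgam* was at 223 and 200 FPKM, *Cd14* at 117 and 110 and *Csf1r* at 104 and 119. Markers of T cells, B cells, neutrophils and their precursors, fibroblasts and erythroid cells (15 genes) reached at most 0.30 FPKM in either library. In these bulk samples fewer cells of a type and less RNA per cell cannot be told apart.

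*Gas5* (ENSMUSG00000053332) lies at chr1:162964553-162968670 on the plus strand of NCBIM37, has 25 annotated transcripts of 346 to 2556 nt and encloses 9 C/D snoRNAs. It was at 170.5 FPKM in WT and 200.6 in ΔM. The ratio was 1.18, with a counting interval from 1.07 to 1.29, and turned to the other side of 1 under the scaling given above. The intervals are 95% exact intervals from the estimated number of fragments on the shortest annotated transcript, the choice that gives the fewest, and cover counting error only. For *Gas5* this number was 924 in WT and 961 in ΔM. *Zbtb37*, a protein-coding gene on the other strand that overlaps the 5′ end of *Gas5*, was at 0.33 and 0.86 FPKM.

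*Snhg3* (ENSMUSG00000085241) lies at chr4:131903929-131909601 on the minus strand, has 5 transcripts of 332 to 581 nt and encloses Snora73a and Snora73b. It was at 155 FPKM in WT and 226 in ΔM, with a ratio of 1.46 (counting interval 1.33 to 1.61). Its locus is crossed by *Gm17300*, a noncoding gene on the plus strand at 56.8 FPKM in WT and 76.4 in ΔM. Whether fragments were assigned by strand is not given in the sources used here, so fragments of *Snhg3* and *Gm17300* cannot be told apart where they overlap. *Rcc1*, which lies on the same strand and overlaps *Snhg3*, was at 2.05 and 1.22 FPKM.

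*Snhg12* (ENSMUSG00000086290) lies at chr4:131864593-131866939 on the plus strand, has 6 transcripts of 364 to 933 nt and encloses 3 H/ACA snoRNAs and 1 C/D snoRNA. It was at 20.5 FPKM in WT and 38.0 in ΔM. The ratio of 1.85 (1.48 to 2.35) was the highest of the 5 host genes. *Trnau1ap*, a protein-coding gene within 1000 nt on the other strand, was at 19.03 FPKM in WT and 15.74 in ΔM.

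*Snhg1* (ENSMUSG00000090867) lies at chr19:8797986-8800932 on the plus strand and encloses 8 C/D snoRNAs. Both of its annotated transcripts, of 2339 and 2719 nt, keep most of the locus as exon, so that intron sequence counts toward its FPKM. It was at 12.7 FPKM in WT and 20.2 in ΔM, with a ratio of 1.58 (1.46 to 1.72). *Slc3a2*, which lies within 1000 nt on the other strand, was at 36.4 and 33.2 FPKM.

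*Snhg5* (ENSMUSG00000032424) lies at chr9:88415894-88417721 on the minus strand and has 1 annotated transcript of 993 nt, with both SNORD50 rows in its introns. It was at 1.6 FPKM in WT and 0.23 in ΔM. These values correspond to about 47.1 and 5.98 fragments, and the ratio of 0.144 had a counting interval from 0.0505 to 0.339. *Snhg5* was thus the lowest host gene in both libraries and the single one of the 5 that was lower in ΔM. After adding 1 FPKM to both values its log2 ratio was -1.08, against -2.80 without the addition.

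**Figure D1:**
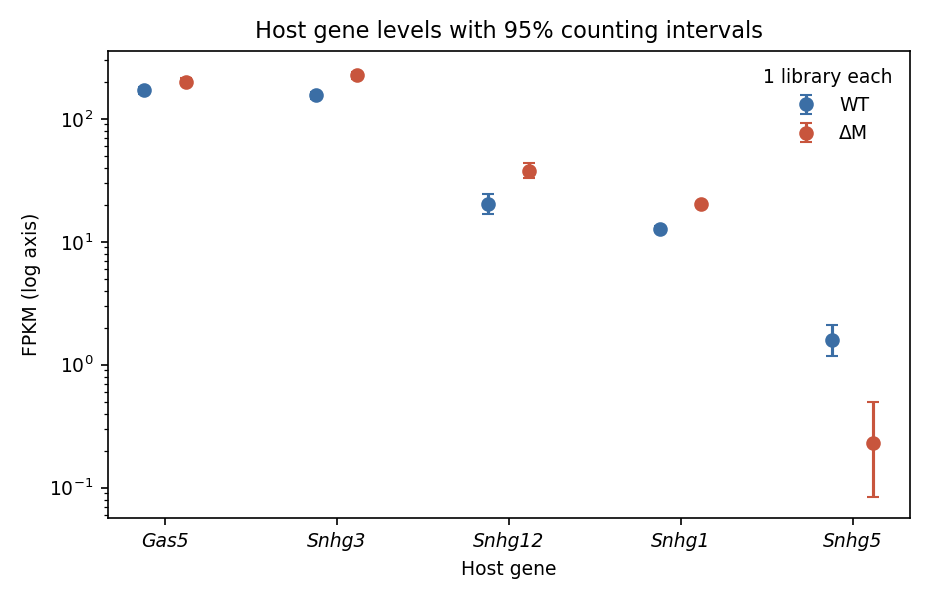
FPKM of the 5 host genes in the WT and ΔM libraries on a log axis, 1 library per genotype, with bars for 95% counting intervals from the shortest annotated transcript. *Gas5* and *Snhg3* lie above 150 FPKM in both libraries, *Snhg12* and *Snhg1* between 12.7 and 38.0 FPKM, and *Snhg5* at 1.6 FPKM in WT and 0.23 in ΔM.

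FPKM is scaled by length, so the levels of the host genes can be set in order, as far as the annotated transcripts hold. *Snhg1* is annotated only with transcripts that keep most of the locus as exon. Its place and the steps to its neighbours therefore depend on that annotation, beyond counting error. In WT the order was *Gas5*, *Snhg3*, *Snhg12*, *Snhg1* and *Snhg5*, and in ΔM *Snhg3* stood above *Gas5*. The counting intervals of *Gas5* and *Snhg3* overlapped in both libraries, at a ratio of 1.1 in WT and 1.13 in ΔM. Overlapping intervals do not show that levels are equal, and the difference between these neighbours was not tested. All other neighbours in the order had intervals that did not overlap: *Snhg3* was 7.57-fold above *Snhg12* in WT, *Snhg12* 1.61-fold above *Snhg1*, and *Snhg1* 7.95-fold above *Snhg5*. In ΔM *Gas5* was 5.29-fold above *Snhg12*, *Snhg12* 1.88-fold above *Snhg1*, and *Snhg1* 87.7-fold above *Snhg5*, the last resting on 5.98 fragments of *Snhg5*.

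Ratios were compared with those of other rows on the log2 scale after adding 1 FPKM, which understates the change of low genes. The log2 ratios were 0.86 for *Snhg12*, 0.63 for *Snhg1*, 0.54 for *Snhg3*, 0.23 for *Gas5* and -1.08 for *Snhg5*. The median over the 5 host genes was 0.54. Over the 8977 genes with a locus over 300 nt and at least 1 FPKM on average the median was 0.01, and 50.7% of these genes were higher in ΔM. Of these genes, 98.2% had a lower log2 ratio than *Snhg12*, 95.8% a lower one than *Snhg1*, 94.1% a lower one than *Snhg3* and 78.9% a lower one than *Gas5*. None of the 5 host genes was at least 2-fold higher in ΔM, against 1.17% of the genes over 300 nt, and *Snhg5* was at least 2-fold lower, against 1.31%. *Snhg5* itself had a mean of 0.915 FPKM and is not among those 8977 genes. Over all 10765 genes averaging at least 1 FPKM, short RNA genes included, 53.8% were higher, 5.69% at least 2-fold higher and 3.61% at least 2-fold lower. Among the 158 noncoding genes over 300 nt, 53.2% were higher in ΔM, 2.53% at least 2-fold higher and 6.33% at least 2-fold lower, and the median was 0.03. The log2 ratios of 4 host genes thus lay above those of most long genes in these libraries, and none of the 4 reached 2-fold.

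**Figure D2:**
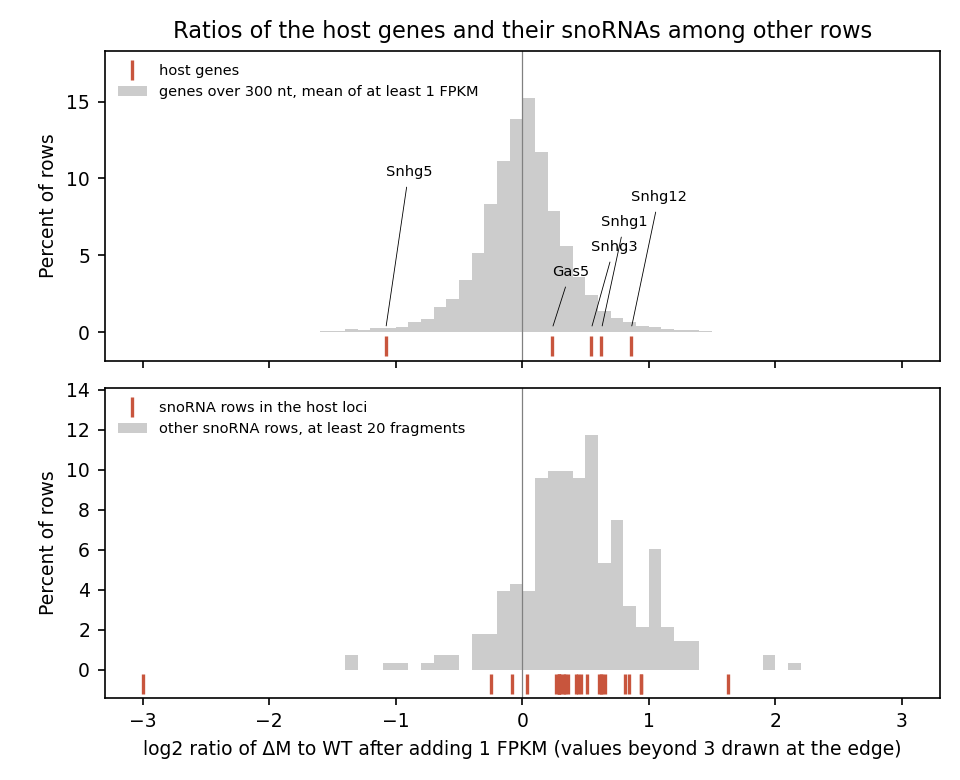
Top: log2 ratios of ΔM to WT after adding 1 FPKM for genes over 300 nt (grey bars, percent of 8977 genes) with the 5 host genes as red ticks. Bottom: the same for 281 other snoRNA rows with at least 20 estimated fragments (grey bars) with the 25 snoRNA rows of the host loci as red ticks, SNORD78 being drawn at the left edge. The grey bars of the long genes centre near 0 with 4 host genes to the right, whereas the other snoRNA rows centre near 0.43, where most red ticks also lie.

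The letters of the host transcripts were searched for TATTTAT, the heptamer that TTP binds, on the sense strand of the longest annotated transcript. None of the 5 host genes held it. Among other noncoding genes whose longest transcript is within 1.25-fold of the same length, the share with the heptamer was 37.2% for the length of *Gas5*, 38.0% for *Snhg1*, 11.3% for *Snhg5*, 10.7% for *Snhg12* and 5.06% for *Snhg3*. This says only that these letters are not in those transcripts.

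FPKMs of genes that are shorter than most fragments are inflated, because the length by which they are divided counts only the positions at which a fragment can start. By the same estimate the fragment lengths behind these FPKMs averaged about 200 nt, which describes the FPKM calculation and does not measure the fragments themselves. The snoRNA rows are 60 to 205 nt long, so under these lengths 1 fragment in WT was worth between 0.816 and 51.1 FPKM, depending on the row. The FPKM of a snoRNA was therefore never compared with that of its host, only between the libraries. Each row was also turned into its estimated number of fragments. The authors selected cDNA by size, in a range above the length of most of these rows. Whether the fragments on these rows come from mature snoRNAs was not tested. Nor was it tested whether the size selection differed between the libraries. The 25 rows together made up 20.5% of the summed snoRNA FPKM in WT and 21.5% in ΔM.

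Within *Gas5*, the 9 C/D snoRNAs guide 2′-O-methylation of ribosomal RNA and all lie in an intron of at least 1 transcript. SNORD77 had the highest value, at 29826 FPKM in WT and 45441 in ΔM (log2 ratio 0.61, counting interval 0.51 to 0.70). SNORD44 had the highest ratio, at 15247 and 27428 FPKM (0.85, 0.64 to 1.06). SNORD78 had the lowest ratio: it was at 92.7 FPKM in WT, which corresponds to 2.50 fragments, and is listed at 0 in ΔM. The upper bound of its log2 ratio from these counts was 1.45, so a difference was not detectable at this depth. The 6 remaining rows were all higher in ΔM, and for 7 of the 9 rows the counting interval lay above 0, against 49.8% of 281 other snoRNA rows with fewer fragments in the median. The least changed of the higher rows, SNORD79, was at 3231 and 3322 FPKM (0.04, -0.26 to 0.34). Neighbouring snoRNAs of this one locus thus differed in level by a ratio of up to 9.23 in WT, SNORD78 left out, and in log2 ratio from 0.04 to 0.85.

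Within *Snhg1*, SNORD29 had the highest value, at 10032 FPKM in WT and 19270 in ΔM (0.94, 0.72 to 1.17). SNORD25 had the highest ratio, at 545 and 1689 FPKM or about 19.7 and 53.9 fragments (1.63, 0.85 to 2.43). It was the single one of the 25 rows that was at least 2-fold higher in ΔM, a change seen in 12.1% of the 281 other snoRNA rows with at least 20 estimated fragments in the libraries together. Snord22 (U22), a snoRNA that is needed for processing of 18S rRNA rather than for a methylation, was at 4511 and 8638 FPKM (0.94, 0.83 to 1.05). SNORD30 and SNORD27 were the 2 rows with lower values in ΔM, at 3543 and 2988 FPKM (-0.25, -0.67 to 0.18) and at 4759 and 4505 FPKM (-0.08, -0.41 to 0.25), and both intervals include 0. Of the 8 rows, 5 had an interval above 0, against 49.8% of the 281 other snoRNA rows. In the annotation 5 of the 8 rows overlap exons of both *Snhg1* transcripts, so that fragments of host and snoRNA cannot be told apart there.

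Within *Snhg3*, Snora73a was at 1874 FPKM in WT and 2289 in ΔM (0.29, 0.21 to 0.37), and Snora73b at 1836 and 2318 FPKM (0.34, 0.25 to 0.42). These H/ACA snoRNAs, known as U17 or E1, act in the cleavage of pre-ribosomal RNA. They were close to each other in level, at a ratio of 1.02 in WT and 1.01 in ΔM, and their 205 nt are the longest of the 25 rows. The *Snhg3* ratio of 0.55 without a pseudocount (0.41 to 0.68) lay above both.

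Within *Snhg5*, the copy of SNORD50 at chr9:88416367-88416438 was at 2546 FPKM in WT and 3630 in ΔM (0.51, 0.11 to 0.92). The other copy, at chr9:88416635-88416706, was at 277 and 376 FPKM, or about 10 and 12 fragments (0.44, -0.89 to 1.81). Although the copies differ by 1 base, as printed above, the first was 9.2-fold above the second in WT and 9.67-fold in ΔM. The summed fragments of both copies were 102 in WT and 128 in ΔM. Thus the snoRNAs inside *Snhg5* were higher in ΔM as deposited, at a log2 ratio of 0.50 (0.12 to 0.90), while the exons of the host were lower. The median of the 281 other snoRNA rows was 0.43. With the libraries scaled to the same FPKM sum over all snoRNA rows, the log2 ratio of the summed FPKM of both copies was 0.057.

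Within *Snhg12*, all 4 rows were higher in ΔM with intervals above 0, as were 49.8% of the 281 other snoRNA rows, which had fewer fragments in the median. Snora61 had the highest value and the highest ratio, at 4146 and 6534 FPKM (0.66, 0.54 to 0.77). Snora16a was at 3929 and 6072 FPKM (0.63, 0.52 to 0.74), and Snora44 at 1411 and 2170 FPKM (0.62, 0.42 to 0.82). Snord99, the C/D snoRNA of the locus, was at 3949 and 5299 FPKM (0.42, 0.11 to 0.74). The 3 H/ACA rows had nearly equal ratios, and the interval of Snord99 overlaps theirs.

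**Figure D3:**
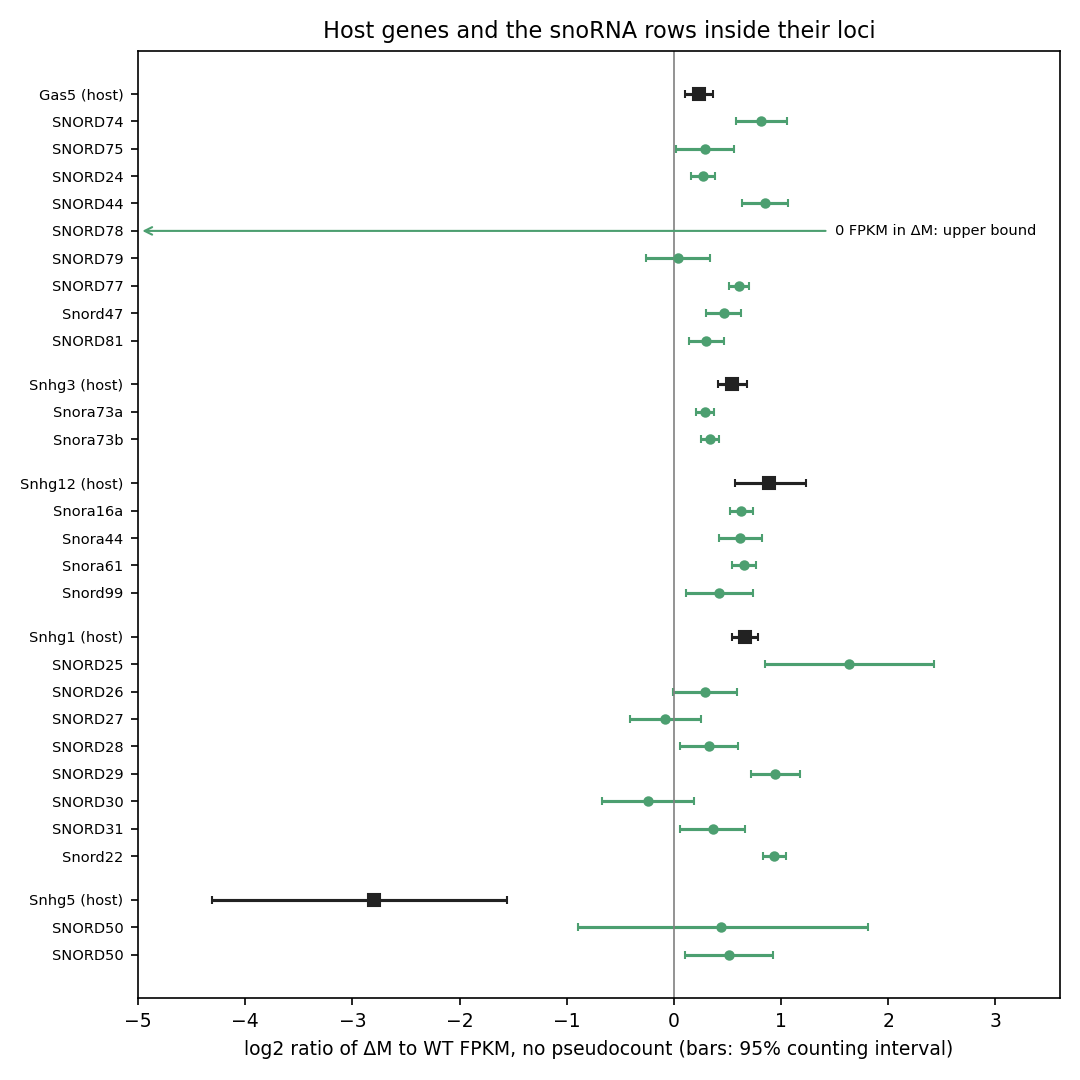
Log2 ratios of ΔM to WT FPKM without a pseudocount for the 5 host genes (black squares) and the 25 snoRNA rows inside their loci (green circles, in order from the 5′ end of the host), with bars for 95% counting intervals. Most circles lie to the right of 0, the square of *Snhg5* lies at -2.80 with both of its SNORD50 rows to the right of 0, and SNORD78, listed at 0 in ΔM, is drawn as an upper bound.

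Over the 25 rows, 22 were higher and 3 lower in ΔM, against 11 and 14 with the libraries scaled to the same sum over all snoRNA rows. This scaling lowers each log2 ratio by 0.45, close to the snoRNA median. A near-even split therefore follows from it and is no finding about direction. As deposited, 19 had a counting interval above 0, 0 had one below 0 and 6 had one that includes 0. Of the 281 other snoRNA rows with at least 20 fragments, 49.8% had an interval above 0 and 1.42% one below 0. The intervals narrow with the number of fragments, whose median over both libraries was 635 in the 25 rows and 233 in the 281, and its part in these counts was not tested. The median log2 ratio was 0.42, with 0.62 over the 5 H/ACA rows and 0.39 over the 20 C/D rows. The H/ACA rows all lie in *Snhg12* and *Snhg3*, so these medians do not separate box type from locus. Other snoRNA rows moved likewise: of the 281 with at least 20 fragments, 85.1% were higher in ΔM, with a median of 0.43, and 48.0% were higher after this scaling. The 24 host-locus rows with as many fragments had a median of 0.43, with 22 of 24 higher. At least 2-fold lower were 0 of these 24 rows and 1.07% of the 281 others. SNORD78, with 2.50 fragments in WT and 0 FPKM in ΔM, is the row not among the 24. The other rows inside protein-coding loci (214) had a median of 0.44 and those outside (67) of 0.39. The share of higher rows in the 5 loci is thus near that of the other snoRNA rows and is no result about these loci. The summed FPKM of all snoRNA rows was 1.36-fold higher in ΔM.

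**Figure D4:**
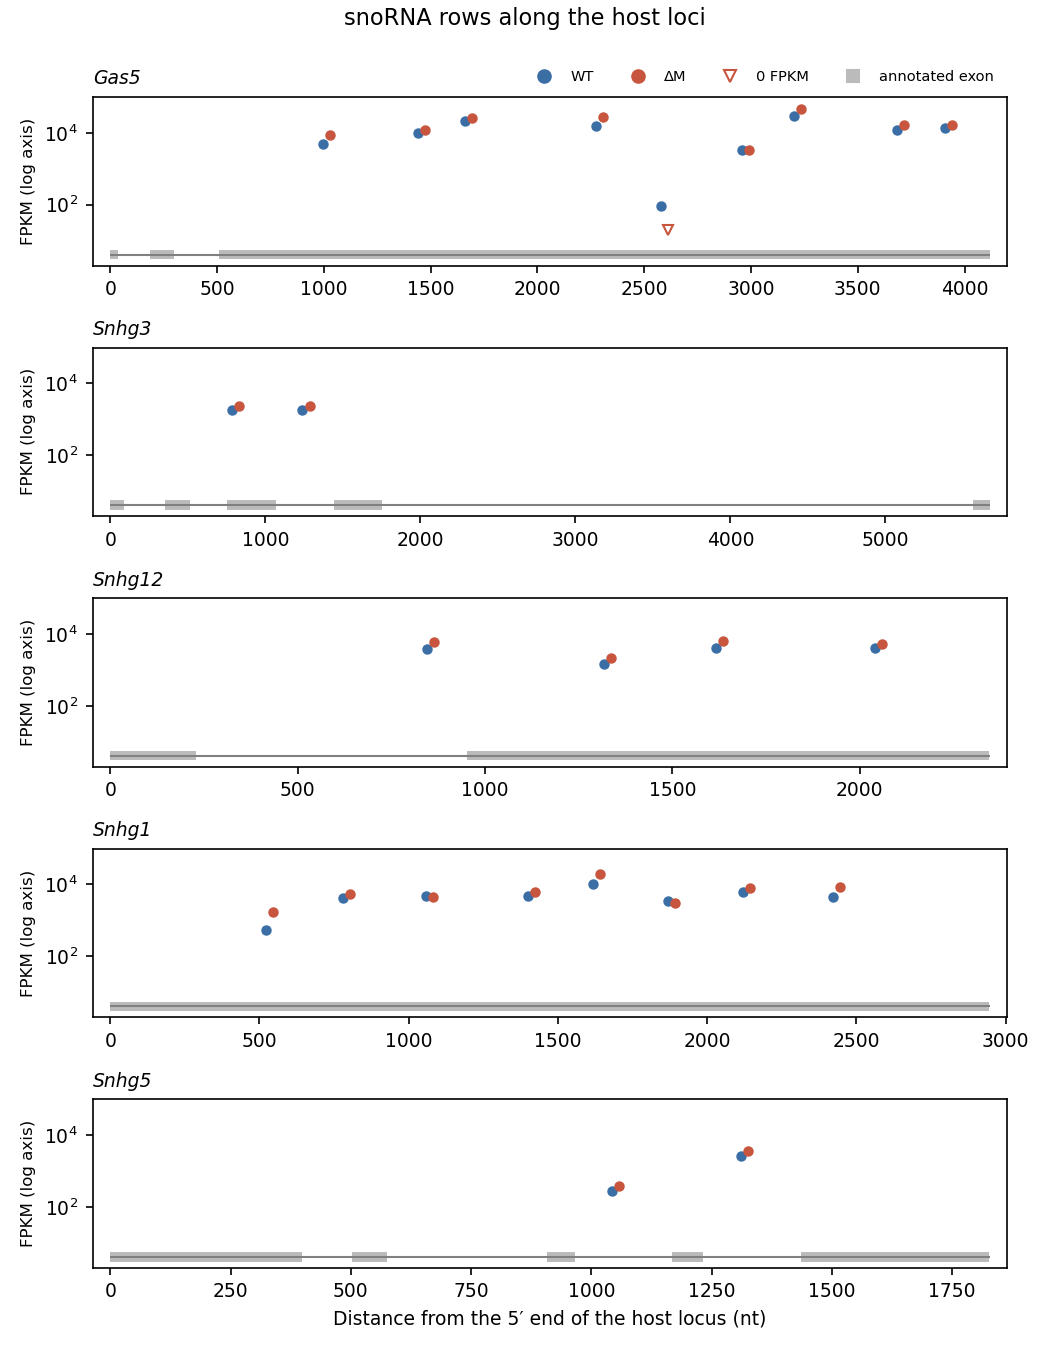
FPKM of each snoRNA row (log axis) against its distance from the 5′ end of the host locus, with WT in blue and ΔM in red; the grey boxes mark the union of annotated host exons and carry no FPKM. In FPKM as deposited the red points lie above the blue ones for 22 of 25 rows, the open triangle stands for SNORD78 at 0 in ΔM, and the exons of *Snhg1* and *Gas5* cover most of the locus because transcripts with kept introns are annotated.

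The place of a snoRNA within its intron was read from the annotation. Of the 25 rows, 20 lie in an intron of at least 1 host transcript and 4 overlap no host exon at all. Between the 3′ end of the snoRNA and the next exon the median distance was 77.5 nt, and 16 of the 20 rows lay within 65 to 81 nt. This spacing is known from box C/D snoRNAs, whose assembly is coupled to splicing, but the rows at this distance were not C/D alone. Among them were the H/ACA rows Snora73a (76 nt), Snora73b (78 nt), Snora44 and Snora61 (81 nt each). Each distance is the shortest over the host transcripts in which the row is intronic, and those of other snoRNA rows are not given here. The distances of the 4 rows outside 65 to 81 nt reached 313 nt, for SNORD77, the row with the highest FPKM of *Gas5*.

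Host and snoRNA ratios were set beside each other per locus. In *Gas5* the summed snoRNA FPKM was 110163 in WT and 155954 in ΔM, and the summed fragments had a log2 ratio of 0.47 (0.42 to 0.53), above the interval of the host of 0.10 to 0.37. In *Snhg1* the summed FPKM was 38636 and 56277, and the log2 ratio of the fragments of 0.70 (0.62 to 0.78) overlapped that of the host (0.55 to 0.78). In *Snhg12* the sums were 13435 and 20075 FPKM, and the ratio of 0.63 (0.56 to 0.70) overlapped the wide interval of the host (0.57 to 1.23). In *Snhg3* the sums were 3710 and 4607 FPKM, and the ratio of 0.31 (0.25 to 0.37) lay below that of the host and came to -0.14 with the libraries scaled to the same snoRNA sum. In *Snhg5* the sums were 2823 and 4006 FPKM, and the ratio lay above that of the host, which was -2.80 (-4.31 to -1.56). The host and its snoRNAs thus differed beyond counting error in *Gas5*, *Snhg3* and *Snhg5*, with the sign differing in *Snhg5* alone in the FPKMs as deposited. Counting error is not the only limit. Every snoRNA row of *Gas5* overlaps an exon of some annotated *Gas5* transcript, so fragments of host and snoRNA are not fully separate there. The same holds for every row of *Snhg1*, so its host and snoRNA ratios are not independent. Snord22, in exons of both *Snhg1* transcripts, gave 1066 of the 2188 summed snoRNA fragments of that locus in WT. The *Snhg3* value may hold fragments of *Gm17300*. With the hosts scaled to the same sum over all genes and the snoRNAs to the same sum over all snoRNA rows, the sign also differed in *Gas5* (-0.21 for the host and 0.054 for its snoRNAs) and in *Snhg3* (0.10 and -0.14). These scaled snoRNA values are of the summed FPKM, not of the summed fragments, and no counting interval was taken for them.

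Other noncoding hosts of snoRNAs gave 8 rows, of which 6 averaged at least 1 FPKM, with 5 higher and 1 lower in ΔM and a median log2 ratio of 0.22. *Snhg9* was at 3.57 and 5.38 FPKM (0.48), *Zfas1* (listed as 1500012F01Rik) at 171 and 206 FPKM (0.26) and 1110038B12Rik at 29.8 and 35.2 FPKM (0.23). *Dancr* (listed as 2700023E23Rik) was at 4.02 and 4.83 FPKM (0.22) and *Snhg7* at 1.36 and 1.51 FPKM (0.09). 2410006H16Rik was at 14.1 FPKM in WT and 4.90 in ΔM (-1.36), while the 3 snoRNAs inside it had a log2 ratio of 0.86. It thus paired a lower host with higher snoRNAs, as *Snhg5* did. Before any scaling the snoRNAs were higher in ΔM for all 7 of these hosts with at least 20 snoRNA fragments. *Snhg4* was at 0.40 and 0.58 FPKM and *Snhg11* at 0 and 0.01 FPKM.

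Protein-coding hosts carry the snoRNAs of many other loci. Of 34 listed genes, 31 had a row and a snoRNA inside their locus on the same strand, and 29 of them averaged at least 1 FPKM. These gave 21 higher and 8 lower in ΔM, 0 at least 2-fold higher, 1 at least 2-fold lower and a median log2 ratio of 0.19. The highest were the ribosomal protein genes *Rpl13a* at 46.7 and 71.9 FPKM (0.61), *Rpl12* at 13.6 and 21.1 FPKM (0.60) and *Rpl7a* at 27.0 and 39.9 FPKM (0.55). The lowest were *Nop56*, a core protein of C/D snoRNPs, at 45.8 and 22.3 FPKM (-1.0), the histone chaperone gene *Nap1l4* at 13.2 and 9.76 FPKM (-0.40) and *Rpl23a* at 2.02 and 1.32 FPKM (-0.38). The summed snoRNA fragments were higher in ΔM for 30 of the 30 protein-coding hosts with at least 20 of them, before any scaling, from 0.01 to 1.06 with a median of 0.42. *Nop56* joined *Snhg5* and 2410006H16Rik in having a ratio of at most -1 with higher snoRNAs inside, at a log2 ratio of 0.50 for its 4 snoRNAs.

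Hosts of all kinds with at least 20 snoRNA fragments and a mean of at least 1 FPKM, with *Snhg5* kept below this minimum, numbered 40. Of these, 30 were higher in ΔM together with their snoRNAs, 10 were lower with higher snoRNAs, and 0 had lower snoRNAs. The minimum left out *Snhg4* (0.17 for the host and 0.28 for its snoRNAs) and *Ncl* (-0.14 and 0.01). With the libraries scaled to the same sum over all snoRNA rows, the snoRNAs of 22 hosts were higher and those of 18 lower, a near-even split that follows from this scaling. Pearson's r between the log2 ratio of the host and that of its snoRNAs was -0.11 and Spearman's rho -0.00338, across genes. Without *Snhg5* they were -0.12 and 0.00364. All points share the same 2 libraries and genes are not independent replicates, so these are descriptions only.

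**Figure D5:**
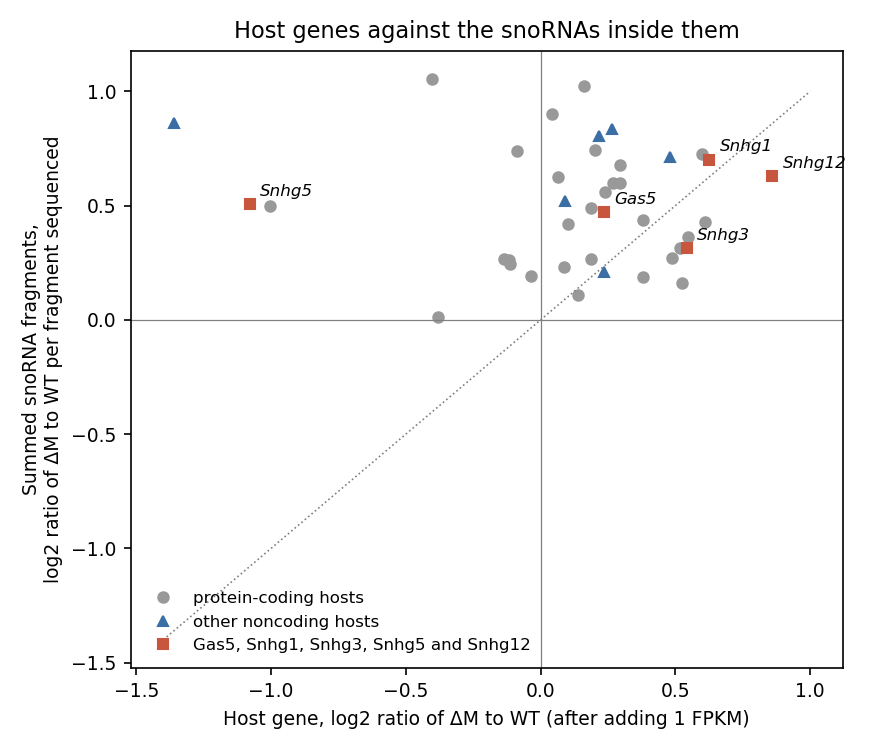
Log2 ratio of ΔM to WT of 40 snoRNA host genes (x axis, after adding 1 FPKM) against that of the summed fragments of the snoRNAs inside them (y axis, per fragment sequenced), with the 5 host genes as red squares, other noncoding hosts as blue triangles, protein-coding hosts as grey circles and the line of equal ratios dotted. In FPKM as deposited all 40 points lie above 0 on the y axis, and 10 of them, *Snhg5* included, lie left of 0 on the x axis. Shown are hosts with at least 20 snoRNA fragments and, except for *Snhg5*, a mean of at least 1 FPKM.

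The genes that make and clear these RNAs were read from fixed lists. Of the 4 C/D core protein genes, 3 averaged at least 1 FPKM and all 3 were lower in ΔM, with a median log2 ratio of -0.49: *Nop56* as above, *Nop58* at 2.40 and 1.42 FPKM (-0.49) and *Nhp2l1* at 1.51 and 1.01 FPKM (-0.32). Of the 8977 genes over 300 nt, 4392 were lower in ΔM. *Nop58* and *Nhp2l1* lay near the minimum of 1 FPKM, and no counting interval was taken for these genes. *Fbl*, the methyltransferase, was at 0.22 and 0.19 FPKM. *Nop56* and *Nop58* themselves enclose 4 snoRNA rows each. Of the 4 H/ACA core protein genes, *Nop10* was at 3.73 and 4.79 FPKM (0.29) and *Nhp2* at 3.37 and 3.39 FPKM (0.01), and *Dkc1* and *Gar1* had a mean below 1 FPKM.

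Among 11 genes of snoRNP assembly and intron debranching, 6 averaged at least 1 FPKM, 3 higher and 3 lower in ΔM with a median of 0.02. The debranching enzyme gene *Dbr1* was at 5.56 and 7.70 FPKM (0.41), the ATPase gene *Ruvbl2* at 14.7 and 16.2 FPKM (0.13) and *Pih1d1* at 12.7 and 13.2 FPKM (0.05). The lowest were *Nufip1* at 1.90 and 1.49 FPKM (-0.22), *Znhit3* at 4.39 and 3.95 FPKM (-0.12) and *Nolc1* at 1.02 and 1.0 FPKM (-0.01).

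Among 10 factors of nonsense-mediated decay, 8 averaged at least 1 FPKM, 2 higher and 6 lower, with a median of -0.07. The kinase gene *Smg1* was at 4.05 and 4.52 FPKM (0.13) and the helicase gene *Upf1* at 9.35 and 10.2 FPKM (0.11). *Smg9* (listed as 1500002O20Rik) was at 15.2 and 10.1 FPKM (-0.55), *Upf3a* at 3.65 and 2.84 FPKM (-0.28) and *Smg5* at 5.14 and 4.26 FPKM (-0.22). None of the 8 was at least 2-fold higher or lower in ΔM, and the same held for the 6 assembly genes.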

How the data were processed

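RNA-Seq of 1 WT and 1 ΔM library was analysed. The deposited values are FPKM per Ensembl gene. The authors removed rRNA, fragmented the RNA, selected cDNA by size, mapped paired-end reads to mm9 with Segemehl, kept unique reads and ran Cufflinks on Ensembl exons. The table gives no counts. 1 gene had no number in ΔM.

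Gene types, strands and exons came from GENCODE M1, which held 37039 of 37451 identifiers. Loci were converted to positions counted from 1. Depth and a shared fragment length distribution were estimated from 6849 short genes with 1 transcript, and fragments of a row were its FPKM times its effective length and depth. Levels have Poisson intervals and ratios Clopper-Pearson intervals (95%). The depth estimate and the ratio intervals were checked on simulated data. Ratios were log2 after adding 1 FPKM, of genes averaging at least 1 FPKM, unless said to be without a pseudocount. Named were all host genes, per locus the snoRNA rows with the highest WT FPKM and the highest and lowest ratio, other noncoding hosts, and the 3 highest and 3 lowest of each list. 1 gene that this rule names is not reported here. Others named were chosen after their values were seen. The genes and lists were chosen with earlier results of these data known. No test was run, because there are no replicates. Python 3.11.15, numpy 2.4.6, pandas 2.3.3, scipy 1.17.1 and matplotlib 3.10.9 were used.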

Additional observations from a re-analysis of the deposited data

How the results depend on the processing

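No paired analysis was possible because each genotype has 1 library, which also means that none could be omitted. Of 79 alternative values, 57 kept their direction within counting error (list medians within 0.1, counts within 1.5-fold), 20 moved further and 2 changed sign. The log2 ratio of *Snhg5* was -2.37 with a pseudocount of 0.1 FPKM and -2.80 with none, against -1.08. Another alternative scaled both libraries to the same FPKM sum over all genes, a sum that was 1.36-fold higher in ΔM. Without a pseudocount this moves every log2 ratio down by 0.44, and with 1 FPKM added *Snhg5* moved less, to -1.27. Under it the log2 ratio of *Gas5* was -0.21, against 0.23 without scaling, that of *Snhg1* 0.21, of *Snhg3* 0.10, of *Snhg12* 0.43 and the median over the host genes 0.10. The levels were then 201 and 174 FPKM for *Gas5* in WT and ΔM, 15.0 and 17.5 for *Snhg1*, 183 and 196 for *Snhg3*, and 32.9 FPKM for *Snhg12* in ΔM. Centring on the median of all genes or of genes over 300 nt shifted ratios by at most 0.03 and changed no direction. With both libraries scaled to the same FPKM sum over all snoRNA rows, the log2 ratio of the summed snoRNA FPKM was -0.14 in *Snhg3*, 0.054 in *Gas5*, 0.10 in *Snhg1*, 0.057 in *Snhg5* and 0.13 in *Snhg12*. Without SNORD29, the row of the largest FPKM, the sum in *Snhg1* had a log2 ratio of 0.37 against 0.54. Only *Nop56* of the C/D core proteins reached 10 FPKM (-1.0), and with this minimum the median of the decay factors was -0.28. With a minimum of 10 FPKM, 306 genes were at least 2-fold higher and 130 lower, against 613 and 389, since fewer genes are tested. Depth limits *Snhg5* in ΔM (5.98 fragments) and SNORD78 (2.50 fragments in WT) most.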
